A study of Mus musculus with 2 samples.

Results

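Desmosomes are spot-like junctions that rivet neighbouring epithelial cells together and anchor their keratin filaments to the cell membrane. Outside the cell, desmogleins and desmocollins, which are both cadherins, bind those of the next cell. Inside, the armadillo proteins plakoglobin and plakophilins gather the cadherin tails into a plaque, and desmoplakin ties that plaque to keratin. In the mammary gland desmosomes hold the basal (myoepithelial) and luminal layers together, and the cadherin and plakophilin genes in use differ between simple and stratified epithelia. The RNA of 10 desmosome genes was followed here, out of 49492 genes in the count table. They were taken by name: the cadherins *Dsg2*, *Dsg3*, *Dsc2* and *Dsc3*, the plakin *Dsp*, the armadillo genes *Jup*, *Pkp1*, *Pkp2* and *Pkp3*, and the membrane protein gene *Perp*.

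The cells were primary mammary basal cells sorted by flow cytometry (lineage-negative, CD24+, CD29 high) from adult wild-type female mice. The lineage gate was set to leave out white blood cells, endothelial cells and red blood cells, and luminal cells were defined as CD29 low. One group of mice was given clodronate liposomes (CL) by repeated intraperitoneal injection, an agent that kills the macrophages that engulf it, and the other served as control (Ctrl). The labels give the control treatment as none and the series description gives it as saline, so an effect of liposomes as such cannot be told apart from that of clodronate. Each group had 1 library, both labelled day 7, and how many mice went into a library was not given in the sources used here. With 1 library per group no spread between animals can be had. No difference given here has a replicate check, and every interval covers counting error only.

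The Ctrl basal library held 37846008 counts and the CL basal library 38962512. As a check of the label, all 15 basal and myoepithelial markers were measured in both libraries, and 0 of them differed by 1.5-fold or more in either direction. All 15 summed to at least 1000 counts, a class in which only 2.21% of genes were lower and 1.04% higher. The 3 most abundant of these markers per length were *Krt14*, *Myh11* and *Acta2*, at 3126, 1121 and 754 RPKM in Ctrl basal (RPKM, reads per kilobase of exon scaled to library size). Luminal markers were present too, with *Krt8* at 1250 and *Krt18* at 925 RPKM in Ctrl basal, and were lower in CL basal. Of 22 luminal genes, 19 were lower by at least 1.5-fold and 0 higher, none was at 0 in either library, and their summed level was 3701 CPM (counts scaled to library size, without length) in CL basal against 6284 in Ctrl basal. The median log2 fold change of that list was -0.87. The luminal counts and the next stand beside 11.7% of all genes compared that were lower and 6.33% that were higher. For scale, the basal list summed to 21150 CPM in CL basal against 20455 in Ctrl basal. Of 10 endothelial markers 1 was lower (*Egfl7*), and of 9 fibroblast markers 2 were lower (*Lum* and *Dcn*). Of 15 macrophage markers 10 had enough counts, and 2 of those were lower (*Mrc1* and *C1qc*) and 1 higher (*Mpeg1*). *C1qc* rests on 6 counts in CL basal against 16 in Ctrl basal, with a counting interval that included 0 (-3.06 to 0.009). The summed level was 31.5 CPM in CL basal against 34.2 in Ctrl basal for the macrophage list, 391 against 482 for the endothelial list and 222 against 274 for the fibroblast list, and their part in the differences below was not tested.

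Dsp and Jup proteins are the shared core of the plaque, and their RNA differed least between the libraries among the members. Their promoters are shown as the 250 bases upstream of the RefSeq transcription start (GRCm38.p6), read 5′ to 3′ on the gene's strand. Capitals mark GC boxes (GGGCGG on either strand), the short element bound by Sp1-type factors. These 2 were the members matched in the promoter table used here.
Dsp, chr13:38151044-38151293, plus strand: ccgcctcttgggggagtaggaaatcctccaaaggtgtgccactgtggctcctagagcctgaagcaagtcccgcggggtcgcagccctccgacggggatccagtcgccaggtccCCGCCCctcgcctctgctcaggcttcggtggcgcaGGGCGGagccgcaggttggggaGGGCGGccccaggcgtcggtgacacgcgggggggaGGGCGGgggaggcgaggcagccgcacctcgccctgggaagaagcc
Jup, chr11:100397791-100398040, minus strand: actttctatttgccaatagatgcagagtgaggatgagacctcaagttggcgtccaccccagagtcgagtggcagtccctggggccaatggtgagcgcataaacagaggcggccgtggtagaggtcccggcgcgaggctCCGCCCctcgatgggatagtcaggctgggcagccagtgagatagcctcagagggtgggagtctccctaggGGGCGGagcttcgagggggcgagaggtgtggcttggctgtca
The *Dsp* window holds 4 GC boxes and the *Jup* window 2, and 32.7% of the 32851 promoters in the table hold at least 1. G and C make up 72.4% of the bases before *Dsp* and 62% before *Jup*, against a median of 52.4% over all promoters. Neither window holds TATAAA (12.4% of promoters do) or CACCTG (17.2% do), an E-box sequence that Snail and Zeb factors can bind. Motifs were searched on both strands, and a match is a description of the letters alone.

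All 10 desmosome genes are protein coding, and all had at least 20 counts over both libraries, the minimum for a gene to enter a comparison (17356 genes did). The 4 cadherin genes lie in a cluster on chromosome 18 (GRCm38). *Dsc3* (19960930 to 20002097) and *Dsc2* (20030633 to 20059554) are on the minus strand, and *Dsg3* (20510304 to 20541310) and *Dsg2* (20558074 to 20604521) on the plus strand. *Dsp* lies on chromosome 13 (38151328 to 38198577) and *Jup* on chromosome 11 (100368958 to 100397763). *Pkp1* lies on chromosome 1 (135871395 to 135919207), *Pkp2* on chromosome 16 (16213318 to 16272712), *Pkp3* on chromosome 7 (141078218 to 141090510) and *Perp* on chromosome 10 (18845020 to 18857073). The exons of 8 of the 10 overlap no other gene of the table. *Dsg2* shares 330 of its 8268 exonic bases with the opposite-strand gene *Gm16090* (328 counts in CL basal against 365 in Ctrl basal). *Dsp* shares 465 of 9625 with *Gm10129* (365 and 327 counts). How strand was treated in counting was not given, so reads from those shared stretches cannot be told apart.

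Per length, desmosome RNA in basal cells was led by the plaque and not by the cadherins. *Dsp* stood at 235 RPKM in Ctrl basal and 232 in CL basal, which placed it above 98.8% of the genes tested. *Pkp1* (80.5 and 92.6 RPKM, in the same order) and *Perp* (78.2 and 69.2) came next, followed by *Jup* (39.2 and 39.5). *Dsg2* (15.7 and 13.6) and *Pkp3* (15.4 and 14.7) formed a tier below. *Pkp2* (2.24 and 1.36), *Dsg3* (1.61 and 2.61), *Dsc2* (1.38 and 0.789) and *Dsc3* (0.983 and 1.09) were all under 3 RPKM.

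**Figure D1:**
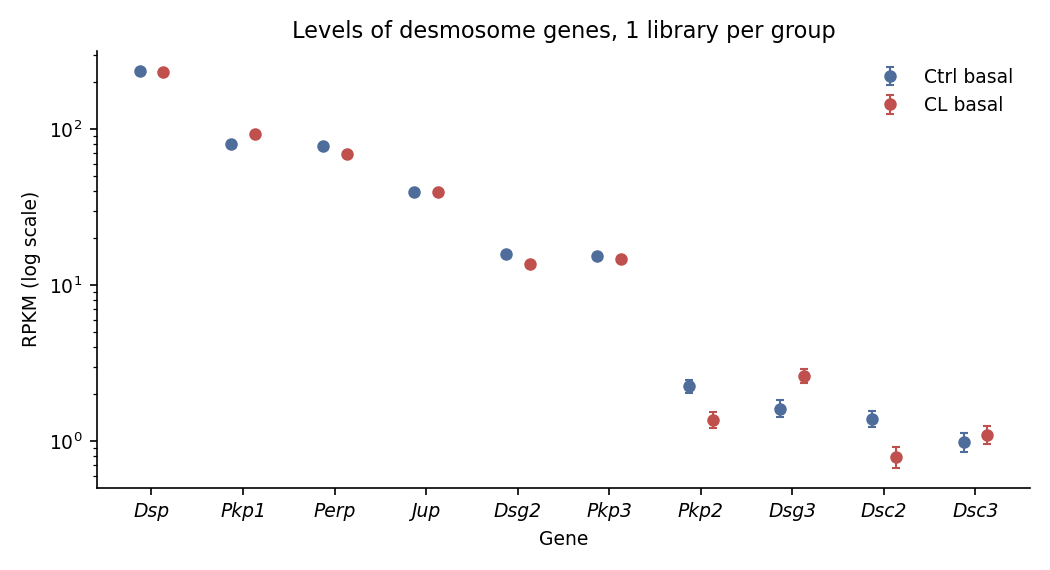
Levels of the 10 desmosome genes in RPKM on a log scale, in the order of Ctrl basal, with 1 point per library (blue for Ctrl basal, red for CL basal) and bars for the 95% exact Poisson interval of the counts. Both libraries show the same tiers, from *Dsp* at 235 and 232 RPKM down to 4 genes under 3 RPKM, and the widest relative gaps between the points of a gene are those of *Dsg3*, *Dsc2* and *Pkp2* in the lowest tier.

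Some neighbours in this order could not be separated. The Poisson intervals of *Pkp1* and *Perp* in Ctrl basal overlapped (79.3 to 81.8 against 76.2 to 80.2 RPKM), as did those of *Dsg2* and *Pkp3* in the same library (15.3 to 16.1 against 14.7 to 16.0). In CL basal *Pkp1* and *Perp* were apart, and *Pkp3* stood above *Dsg2* with intervals that again overlapped (14.02 to 15.30 against 13.22 to 14.04). The lowest tier was ordered *Pkp2*, *Dsg3*, *Dsc2*, *Dsc3* in Ctrl basal and *Dsg3*, *Pkp2*, *Dsc3*, *Dsc2* in CL basal. Within it the intervals of *Dsg3* and *Dsc2* overlapped in Ctrl basal, and those of *Pkp2* and *Dsc3* in CL basal. Levels also depend on the length used. With the longest coding transcript in GENCODE M21 in place of the exonic length in the table, an alternative chosen after the values were seen, *Jup* rose to 78.7 RPKM in Ctrl basal, beside *Perp* at 78.2. *Dsg3* fell to 1.07, under *Dsc2* at 1.58. That transcript of *Dsg3* (6212 bases) is longer than the exons over which its reads were counted (4108 bases). Its value is thus too low by construction, and the order of *Dsg3* and *Dsc2* by that length is not informative. A change of length moves levels, shares and ratios between genes, and leaves the difference of each gene between libraries as it is.

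The comparison of CL basal with Ctrl basal asked whether desmosome RNA differed in basal cells of mice given CL. The 6 more abundant genes, *Dsp*, *Pkp1*, *Perp*, *Jup*, *Dsg2* and *Pkp3*, each differed by less than 1.5-fold. Of the 4 scarce ones *Dsc2* and *Pkp2* were lower in CL basal, *Dsg3* was higher, and *Dsc3* stayed under the threshold. The counting intervals of *Dsg3*, *Dsc2* and *Pkp2* each reached under 1.5-fold. In all, 2 of 10 members were lower and 1 higher by at least 1.5-fold, beside 11.7% (lower) and 6.33% (higher) of all genes tested. Their median log2 fold change was -0.04, beside -0.01 for all genes tested. Because these are bulk libraries, fewer cells of a type and less RNA per cell cannot be told apart.

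Scatter between the libraries shrank with abundance, so members were also read against genes of their own class. Of the 6 whose counts summed to at least 1000, 0 were past 1.5-fold, as against 2.21% of 7097 such genes lower and 1.04% higher. Of the 4 with 100 to under 1000 counts, 2 were lower and 1 was higher, as against 12.2% and 5.02% of 6410. At 2-fold no member was called, and over all genes 4.79% were lower and 2.07% higher.

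**Figure D2:**
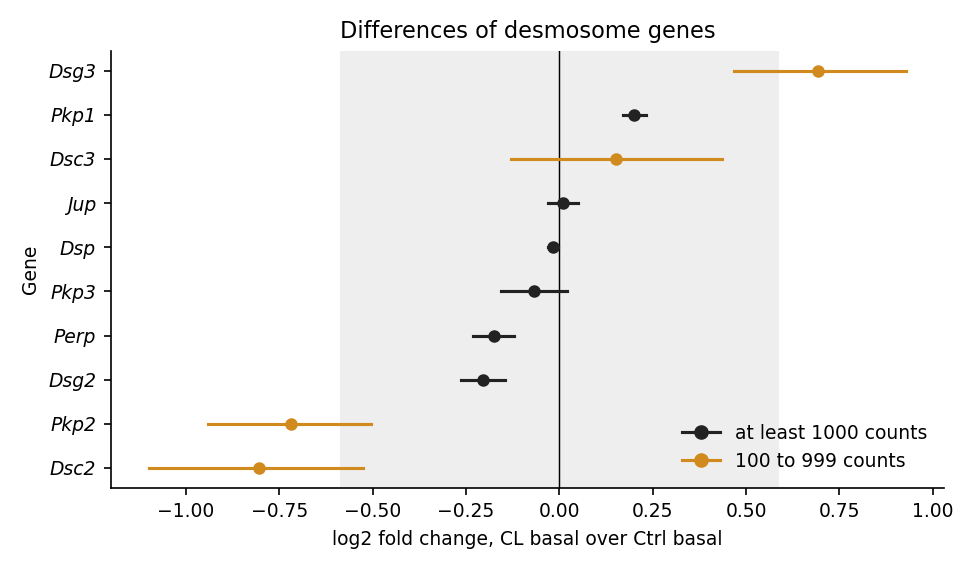
Log2 fold change of CL basal over Ctrl basal for each desmosome gene, with the 95% exact binomial interval of the reads (counting error only). Black marks genes with at least 1000 counts, ochre those with 100 to under 1000, and the grey band spans changes under 1.5-fold: *Dsg3* (0.69) lies to its right, *Dsc2* (-0.80) and *Pkp2* (-0.72) to its left, and the other 7 inside it.

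Desmogleins came first among the cadherins. *Dsg2*, the desmoglein found in all tissues with desmosomes, had 4331 counts in CL basal against 4980 in Ctrl basal. It was slightly lower in CL basal, by 13.3% (log2 fold change -0.21, 95% exact binomial interval -0.26 to -0.15). A difference of that size or more in either direction was seen in 37.5% of genes of its abundance class. *Dsg3*, the desmoglein of the basal layers of stratified epithelia and the target of pemphigus vulgaris autoantibodies, had 413 counts in CL basal against 254 in Ctrl basal. It was higher in CL basal by 61.7% (log2 fold change 0.69, 0.47 to 0.93), and 11.3% of the genes in its class differed as much or more.

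The desmocollins were scarcer. *Dsc2*, the widespread desmocollin of epithelia with desmosomes, had 160 counts in CL basal against 280 in Ctrl basal. It showed the largest difference among the members, lower by a log2 fold change of -0.80 (-1.10 to -0.53), and 7.52% of genes in its class differed as much or more. That rank is not firm, since the interval of *Pkp2* (-0.94 to -0.51) overlapped it. With the trend on mean expression removed, *Dsg3* (0.75) differed more than *Dsc2* (-0.73). *Dsc3*, which goes with *Dsg3* in basal layers of stratified epithelia, had 223 counts in CL basal against 200 in Ctrl basal. Its log2 fold change of 0.15 (-0.13 to 0.44) was not distinguishable from 0 at this depth.

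The balance between paralogs differed in both cadherin families, with a higher ratio of *Dsg3* to *Dsg2* and of *Dsc3* to *Dsc2* in CL basal. Among desmocollins the larger difference was that of *Dsc2* (log2 fold change -0.80). The part of *Dsc3* (0.15, with an interval that included 0) was not resolved. Per length, the ratio of *Dsg3* to *Dsg2* was 0.192 in CL basal against 0.103 in Ctrl basal, a 1.87-fold difference (log2 0.90, 95% exact conditional interval 0.67 to 1.14). The ratio of *Dsc3* to *Dsc2* was 1.39 in CL basal against 0.711 in Ctrl basal, a 1.95-fold difference (log2 0.96, 0.56 to 1.37). These ratios are taken within a library, so the scaling cancels. They were not set against other gene pairs of like abundance, so how common such shifts are is not known here. *Dsg3* made up 16.1% of desmoglein RPKM in CL basal against 9.25% in Ctrl basal, and *Dsg2* remained the main desmoglein at 83.7% and 90.1%. By the longest coding transcript the share of *Dsg3* was 8.11% and 4.50%, which is too low, since that transcript is longer than the exons counted for *Dsg3*. Among desmocollins *Dsc3* held 55.3% in CL basal against 39.5% in Ctrl basal, and *Dsc2* held 39.9% and 55.5%. By transcript length *Dsc3* held 52.4% and 36.6%, and the Poisson intervals of *Dsc3* and *Dsc2* in CL basal then overlapped, so their order there could not be separated. Summed over all desmogleins and desmocollins, cadherin RNA was 18.3 RPKM in CL basal against 19.9 in Ctrl basal.

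**Figure D3:**
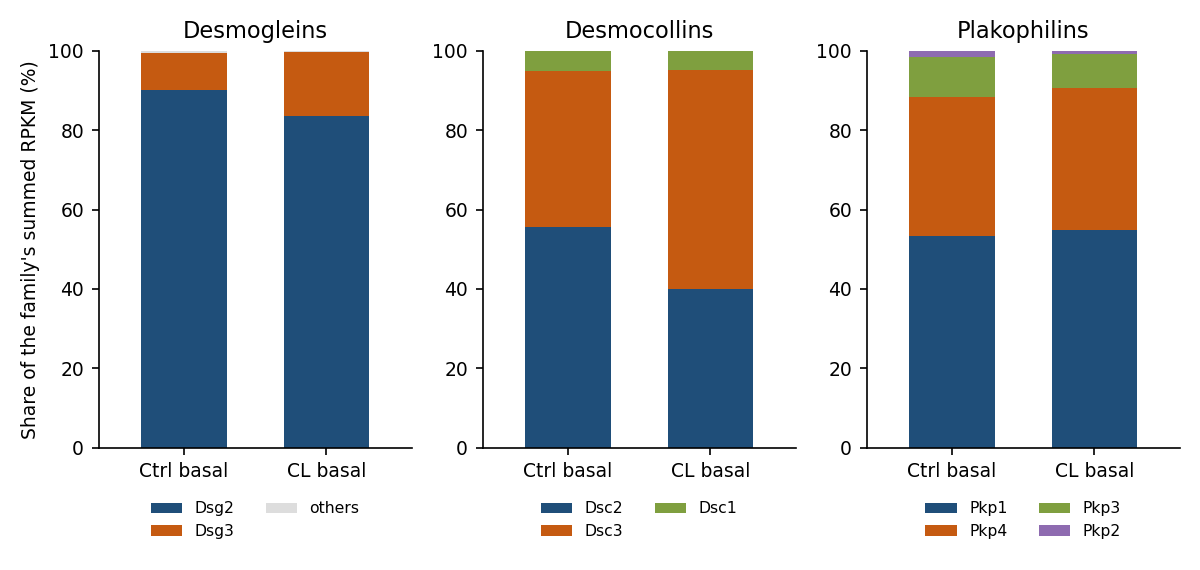
Share of each gene in the summed RPKM of its family (y axis, percent), with 1 bar per library for desmogleins, desmocollins and plakophilins. *Dsg3* (orange, left) takes 9.25% in Ctrl basal and 16.1% in CL basal, *Dsc3* (orange, middle) 39.5% and 55.3%, and *Pkp2* (purple, right) 1.48% and 0.805%.

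Desmoplakin, which joins the plaque to keratin filaments, was level. *Dsp* had 85923 counts in CL basal against 86733 in Ctrl basal (log2 fold change -0.02, -0.03 to -0.004), and 94.1% of genes of its class differed as much or more. *Jup*, which encodes plakoglobin, the partner of the cadherin tails and a close relative of beta-catenin, had 9770 and 9676 counts. Its log2 fold change of 0.01 (-0.03 to 0.05) turned slightly negative under 3 of 10 alternative settings, down to -0.07. Per exonic base in the table, *Dsp* exceeded *Jup* 5.88-fold in CL basal and 5.99-fold in Ctrl basal, and by the longest coding transcript 2.939-fold and 2.995-fold.

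The plakophilins, which cluster cadherins and recruit desmoplakin, had 1 member past 1.5-fold, *Pkp2*. *Pkp1*, the plakophilin of stratified and other complex epithelia, had 17880 counts in CL basal against 15514 in Ctrl basal, higher by 14.9% (log2 0.20, 0.17 to 0.23), and 38.3% of genes in its class differed as much or more. *Pkp3*, widespread in epithelia, had 2037 and 2131 counts, and its log2 fold change of -0.07 (-0.16 to 0.02) had an interval that included 0. *Pkp2*, the plakophilin of simple epithelia and heart, had 280 and 461 counts. It was lower in CL basal by a log2 fold change of -0.72 (-0.94 to -0.51), and 10.1% of genes in its class differed as much or more. The ratio of *Pkp1* to *Pkp2*, compared after the values were seen, was 68.1 in CL basal against 35.9 in Ctrl basal, a 1.90-fold difference (log2 0.92, 0.70 to 1.15). *Pkp2* made up 0.805% of plakophilin RPKM in CL basal against 1.48% in Ctrl basal (1.28% and 2.35% by transcript length), so this shift involved a minor member.

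*Perp*, a tetraspan membrane protein needed for stable desmosomes in stratified epithelia and a target gene of p63, had 5195 counts in CL basal against 5854 in Ctrl basal. It was lower by 11.5% (log2 -0.18, -0.23 to -0.12), and 44.6% of genes in its class differed as much or more. Summed over the 10 members, desmosome RNA was 468 RPKM in CL basal against 470.2 in Ctrl basal.

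**Figure D4:**
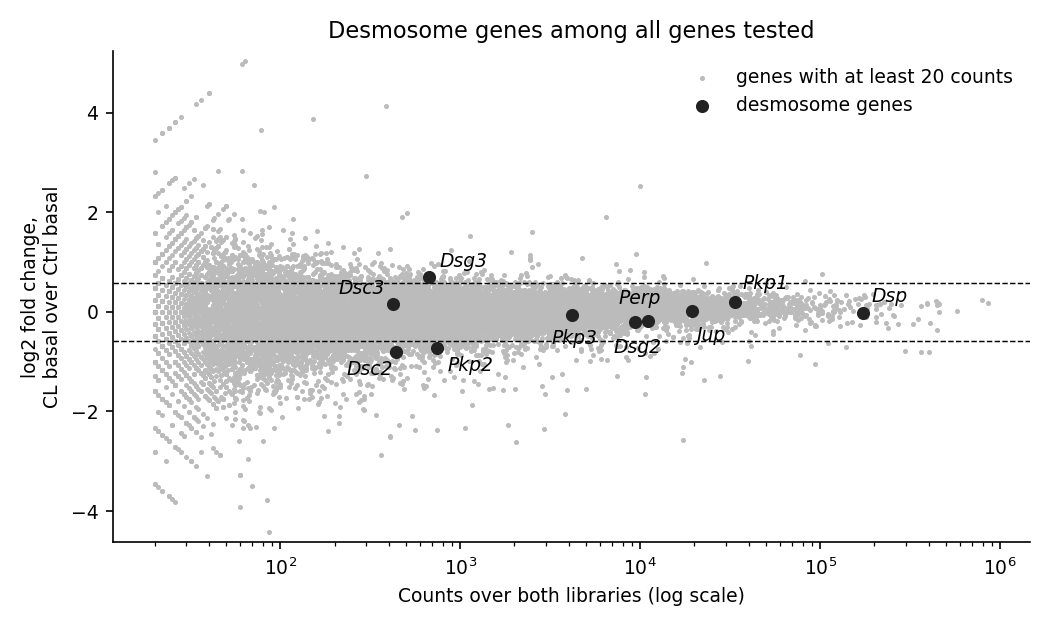
Log2 fold change of CL basal over Ctrl basal (y axis) against counts over both libraries (x axis, log scale) for the 17356 genes tested in grey, with the 10 desmosome genes in black and dashed lines at 1.5-fold. The 6 members with at least 1000 counts sit in the body of the cloud, and *Dsg3*, *Dsc2* and *Pkp2*, just past the lines, have many genes of like abundance beyond them.

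The differences of *Dsc2* (-0.80) and *Pkp2* (-0.72) lay inside the range of the 22 luminal markers, which ran from -1.65 (*Krt7*) to -0.26 (*Epcam*), and also inside that of the 9 fibroblast markers (-1.86 to 0.10, median -0.48). The fibroblast range is wide and holds *Dsg2*, *Perp*, *Pkp3*, *Dsp* and *Jup* as well. The 3 most abundant luminal genes per length were *Krt8* (-0.71), *Krt18* (-0.86) and *Epcam*. *Dsg2*, which luminal cells also use, was at -0.21, outside the luminal range, though its interval (-0.26 to -0.15) overlapped that of *Epcam* (-0.28 to -0.24), the marker at the upper end. The part of luminal or fibroblast RNA in these differences was not tested.

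Suprabasal epidermal genes, which mark the upper layers of skin, also differed, in both directions. Of 19 such genes 10 had enough counts, with 5 higher and 3 lower by at least 1.5-fold (6.33% and 11.7% of all genes compared). *Krt1* (367 counts in CL basal against 19 in Ctrl basal) and *Krt10* (262 and 38) were the most increased with at least 100 counts, and *Dmkn* (102 and 236) and *Sbsn* (615 and 1196) the most decreased. *Flg*, *Lce1a1*, *Casp14* and *Klk5* were at 0 in both libraries. The median log2 fold change of the list was 0.65, and its summed level was 55.3 CPM in CL basal against 53.3 in Ctrl basal. The part of such cells in the difference of *Dsg3* was not tested. The desmosomal cadherins of those upper layers were nearly absent. *Dsc1* had 14 counts in CL basal against 18 in Ctrl basal, and *Dsg1a* 10 and 16. *Dsg1b* had 0 and 4, *Dsg1c* 0 and 2, and *Dsg4* 0 in both, where a count of 0 allows up to 0.078 CPM. The *Dsg1* copies are near-identical paralogs, so the way reads were split between them is uncertain.

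A further 10 desmosome genes were listed beside the members, and 7 had enough counts. Past 1.5-fold, 1 was lower and 0 higher, near the share of all genes compared (11.7% and 6.33%). That gene was *Dsg1a*, at a log2 fold change of -0.59 on the 26 counts just given. *Evpl*, which encodes the plakin envoplakin, lay just short of the threshold at -0.58 (-0.70 to -0.47, with 1026 counts in CL basal against 1533 in Ctrl basal), and its partner *Ppl* (periplakin) was at -0.16 (11780 and 13108). *Pkp4*, an armadillo relative of the plakophilins found at desmosomes and adherens junctions, was abundant at 60.2 RPKM in CL basal against 53.1 in Ctrl basal (0.18). *Kazn*, a periplakin-binding protein gene, was at 0.46 (0.35 to 0.56, with 1834 and 1333 counts).

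Keratins form the filaments that desmosomes anchor. Of 6 basal keratins 1 was higher by at least 1.5-fold and 0 lower: *Krt15*, a keratin of basal keratinocytes, had 15478 counts in CL basal against 7783 in Ctrl basal (log2 fold change 0.99, 0.95 to 1.03). The other 5 were at 0.16 (*Krt17*), 0.14 (*Krt14*), -0.13 (*Krt6b*), -0.23 (*Krt5*) and -0.35 (*Krt6a*). Of 5 simple epithelial keratins 4 were lower and 0 higher, with *Krt7* (-1.65) and *Krt19* (-1.11) the most decreased, while *Krt20* (93 and 66 counts) was at 0.48. These counts stand beside the 11.7% of all genes compared that were lower and the 6.33% that were higher, and the difference between both keratin lists was not tested. *Krt7*, *Krt8*, *Krt18* and *Krt19* are also on the luminal list. The median of the basal keratins was 0.01 (from -0.06 to 0.14 under other settings, so without a fixed sign) and that of the simple keratins -0.86.

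Of 11 adherens junction genes 1 was lower by at least 1.5-fold and 0 higher, beside 11.7% and 6.33% of all genes compared. That gene was *Nectin4*, an adhesion molecule, with 239 counts in CL basal against 486 in Ctrl basal (-1.02), in the class of 100 to under 1000 counts, where 12.2% were lower. The classical cadherins *Cdh1* and *Cdh3* were at -0.12 and 0.17. Of 9 hemidesmosome genes, which fasten basal cells to the basement membrane, 0 were past the threshold in either direction. Their log2 fold changes ran from -0.51 (*Itgb4*, -0.56 to -0.46 by counting error) to 0.23 (*Dst*). The tight junction genes *Cldn4* and *Cldn3*, which are on the luminal list, were at -1.29 and -1.06. The medians were -0.06 for adherens junction genes and -0.08 for hemidesmosome genes, beside -0.04 for the desmosome genes.

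**Figure D5:**
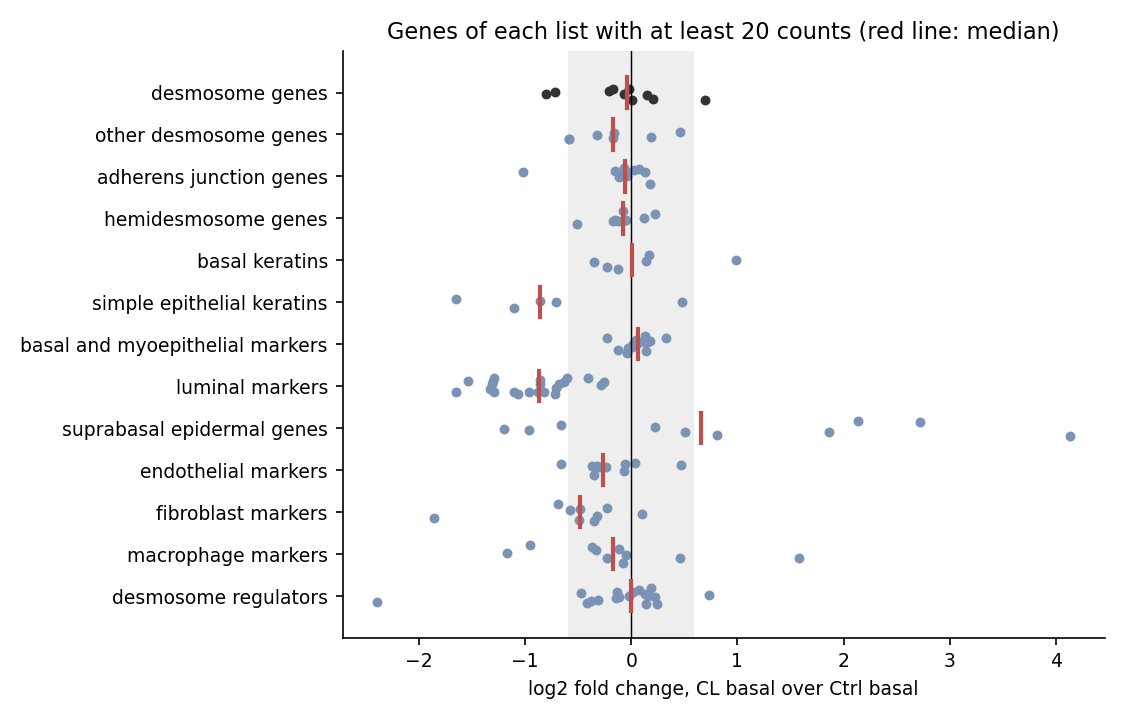
Log2 fold change of CL basal over Ctrl basal for the genes of each list with at least 20 counts, 1 point per gene (black for the desmosome genes), with the list median as a red line and changes under 1.5-fold in grey. Medians of the 3 junction types lie between -0.08 and -0.04, and those of luminal markers (-0.87) and simple epithelial keratins (-0.86) lie to the left of the band. That of suprabasal epidermal genes (0.65) lies to its right.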

How the data were processed

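The authors deposited raw counts of reads over the annotated exons of each gene, with the GRCm38/mm10 build named in the labels and the columns in featureCounts layout. The aligner, strand setting and filters were not given in the sources used here. A ratio and a log2 ratio deposited beside the counts hold the authors' own comparison and were not used. Of the 10 members 7 had the same start and end in GENCODE M21. Low counts were mostly even (68.7% of CL basal values between 1 and 20, against 67.9% for Ctrl basal), so mates of a pair may have been counted separately, which would make the intervals too narrow. PCR copies would narrow them further.

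Counts were scaled by TMM in edgeR 4.0.16 (R 4.3.3), with a factor of 1.01 for Ctrl basal against 0.987 for CL basal. The comparison took genes whose counts summed to at least 20, with a prior count of 2. No test was made, since no replicate model can be fitted to 1 library per group. A gene was called at 1.5-fold. Intervals of 95% (Clopper-Pearson for differences, exact Poisson for levels, exact conditional for ratios) used scipy 1.17.1. The calculation was tested on simulated counts drawn as independent reads. These leave out mates counted separately and PCR copies, so the width of the intervals on the real counts was not checked. All 10 members are named, and from other lists up to 2 genes each way past 1.5-fold with at least 100 counts, plus the 3 most abundant genes where a list checks a label. A few further genes, such as *Evpl*, *C1qc*, *Pkp4*, *Krt20*, *Cdh1*, *Itgb4* and the scarce cadherins, were named after their values were seen. Members and lists were chosen with earlier results of these data known. DESeq2 1.42.0 gave alternative size factors.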

Additional observations from a re-analysis of the deposited data

How the results depend on the processing

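The members' differences were recomputed under 10 alternatives: scaling by total counts, DESeq2 size factors, the upper quartile or centring on the basal markers; prior counts of 0.5 and 5; filters of at least 1 and at least 100 counts; removal of the trend on mean expression; and thinning of the deeper library. Of 100 member values 88 stayed within the counting interval, and 0 crossed 1.5-fold. The values under both filters repeat the main ones and could not move. Every member had at least 100 counts over both libraries, and the scaling was kept. *Dsg3* ran from 0.63 to 0.75, *Dsc2* from -0.87 to -0.73 and *Pkp2* from -0.78 to -0.67. At 2-fold, 0 members were lower and 0 higher, with 831 genes lower and 360 higher over all. The count of genes past 1.5-fold, 2029 lower and 1098 higher, became 5315 and 3309 with at least 1 count and 937 and 396 with at least 100 counts, since more or fewer genes were compared. With counts halved, the intervals widened to 0.37 to 1.02 for *Dsg3*, -1.23 to -0.40 for *Dsc2* and -1.03 to -0.41 for *Pkp2*, each of which reaches under 1.5-fold, as the intervals on full counts do. That of *Dsp* then included 0 (-0.04 to 0.002). No paired analysis was possible because only 1 library stood for each condition. Low depth limits *Dsc2* and *Dsc3*, with 440 and 423 counts over both libraries.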

Other observations

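Genes that control desmosomes were also measured. Of 18 such genes, among them transcription factors and sheddases, 1 was lower and 1 higher by at least 1.5-fold (11.7% and 6.33% of all genes compared), and the median log2 fold change was -0.004. *Zfp750*, a p63-dependent factor of epidermal differentiation, had 28 counts in CL basal against 155 in Ctrl basal (log2 fold change -2.39, 95% exact binomial interval -3.11 to -1.89). *Grhl3*, another factor of epidermal differentiation, had 63 and 37 counts (0.73, 0.16 to 1.39), which is few counts for the size of the difference. *Trp63*, which encodes p63, was at 0.14 (6601 and 5984 counts), while *Perp* was at -0.18. Among factors of mesenchymal transition, *Snai2* was at 0.19 and *Zeb2* at -0.47. *Adam10* and *Adam17*, sheddases that can cut desmoglein 2, were at -0.41 and -0.14. *Trp63*, *Snai2*, *Zeb2*, *Adam10* and *Adam17* were picked after their values were seen.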
